A study of Mus musculus with 30 samples.

Results

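Dab1, Lrp8 and Vldlr encode the core of the reelin receptor complex, and all splicing events listed under these 3 gene symbols were taken from the 4 deposited tables of alternative splicing. They numbered 5 of the 6491 listed events: 2 of Dab1, 1 of Lrp8 and 2 of Vldlr. Reelin is a secreted glycoprotein that binds the lipoprotein receptors ApoER2, the product of Lrp8, and VLDLR on migrating and maturing neurons. Binding leads to tyrosine phosphorylation of the adaptor protein DAB1 by the kinases SRC and FYN, and phosphorylated DAB1 passes the signal to CRK adaptors, the exchange factor encoded by Rapgef1 and the kinase PI3K. The pathway is best known for placing neurons in the layers of the cortex and for the alignment of Purkinje cells in the cerebellum.

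The series compares RNA from mouse nervous tissue with and without Nova2, which encodes a regulator of neuronal splicing. Its labels give 30 samples in 10 groups of 3, and the tables cover 18 samples in 6 groups, all of them C57BL/6J mice with ribosomal RNA removed. Nova2 conditional knockout (cKO) and control cells were sorted from cortex at embryonic day 18.5 of Emx1-Cre mice, whose Cre acts in the lineage of cortical excitatory neurons, and of Gad2-Cre mice, whose Cre acts in inhibitory neurons. Nova2 cKO and control tissue of the cerebellar Purkinje layer was taken at postnatal day 28 from Pcp2-Cre mice, in which Cre acts in Purkinje cells. The labels call the controls wild type and name the same Cre driver for them. The Emx1 lineage also gives rise to cortical glia, the labels do not name what the sort selected, and the dissected Purkinje layer holds cells other than Purkinje cells. Whether replicates came from different animals is not stated in the labels. The authors' p-values and false discovery rates (FDR) then measure at most the spread between these samples, which may be technical. Another 12 samples (4 groups) were left aside. In both cKO tables, control was taken as group 1 and cKO as group 2 from the order of names in the labels, and all differences are given as cKO minus control.

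Each table lists events with an FDR of at most 0.05 and a difference in inclusion level of at least 0.1 between groups. The inclusion level, between 0 and 1, sets the first-named isoform of an event against the other isoform of that event. Further forms at the same place are not part of it. The tables give 1 pooled level per group, without a value or an error for each library. The spread between replicates could thus enter only through the authors' p-values and FDR, and the test behind them is not stated. The depth of the libraries is unknown. The lowest coverage of a listed event was 20 in each table. An event that a table does not list may have changed little or may have been too thinly covered, and these cases cannot be told apart. The tables hold no expression levels, so neither the level of each gene nor the labelled cell type could be checked. Of 46 marker genes of brain cell types, 3 had a listed event in Emx1-Cre cells, 2 in Gad2-Cre cells, 1 in the Purkinje layer and 0 between Emx1-Cre and Gad2-Cre controls. Over all protein-coding genes in GENCODE, the shares were 4.52%, 3.81%, 1.14% and 2.41% in that order. In Emx1-Cre cells, 1 marked Purkinje cells, 1 astrocytes and 1 inhibitory neurons, and 0 of 6 markers of excitatory neurons were listed. Both in Gad2-Cre cells marked inhibitory neurons, and that in the Purkinje layer marked Purkinje cells. The part of these markers in the results was not tested.

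The exons on which the Dab1 result turns lie on the plus strand of chromosome 4 in mouse build mm10 (GRCm38), with positions counted from 1. A flanking exon of 60 nt (chr4:104688383-104688442) is followed far downstream by alternative exons of 51 nt (chr4:104713622-104713672) and 48 nt (chr4:104713764-104713811), and then by an exon of 63 nt (chr4:104718210-104718272). The sequences below are those of GENCODE release M21 transcripts, shown so that the inserted stretch can be read between its neighbours. GENCODE annotates the 51 nt exon as coding, in 1 transcript that ends within the second alternative exon, so that only the first 37 nt of the second exon are shown. Capitals mark TCAT or TCAC and likewise CCAT or CCAC, the tetramers that NOVA proteins are known to bind when clustered in RNA.
Dab1 upstream exon, 60 nt: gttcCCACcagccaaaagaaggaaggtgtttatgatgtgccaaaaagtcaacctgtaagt
Dab1 alternative exon, 51 nt: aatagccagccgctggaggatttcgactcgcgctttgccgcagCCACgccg
Dab1 second alternative exon, first 37 nt: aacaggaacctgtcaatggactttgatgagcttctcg
Dab1 downstream exon, 63 nt: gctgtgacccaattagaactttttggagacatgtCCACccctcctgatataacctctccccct

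Both receptors had an event at an exon of 123 nt in the region of the gene that encodes the ligand-binding part, which is built of repeated cysteine-rich modules in proteins of this family. The Lrp8 exon lies on the plus strand at chr4:107848281-107848403 and is coding in GENCODE. The annotated Vldlr exon lies on the plus strand at chr19:27236240-27236362 and is likewise coding. Both are shown because they carry the listed receptor events.
Lrp8 alternative exon, 123 nt: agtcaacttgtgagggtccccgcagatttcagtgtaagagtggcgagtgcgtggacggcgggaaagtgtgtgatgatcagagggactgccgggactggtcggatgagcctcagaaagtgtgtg
Vldlr alternative exon, 123 nt: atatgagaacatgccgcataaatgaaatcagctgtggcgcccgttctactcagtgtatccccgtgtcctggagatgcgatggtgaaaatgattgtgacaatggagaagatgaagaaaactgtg

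The 51 nt Dab1 exon held 1 match on the transcribed strand and 0 on the other strand, and 49.7% of the 622 internal exons of 51 nt in GENCODE protein-coding transcripts held at least 1 match on the transcribed strand. The 123 nt exons of Lrp8 and Vldlr held 0 matches on the transcribed strand, with 6 and 9 on the other strand. Of 1515 internal exons of 123 nt, 85.3% held at least 1 on the transcribed strand. No matches overlapped one another in the Dab1 exons. Intron sequence was not used here.

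**Figure D1:**
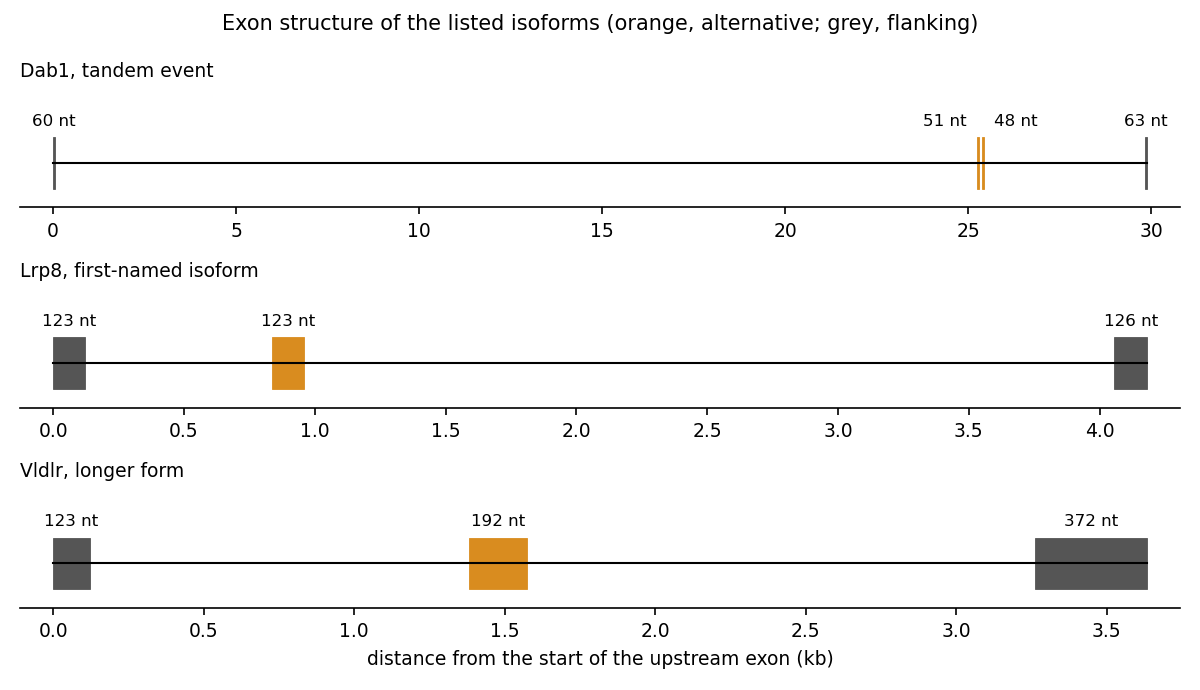
Exon structure of the listed isoforms of Dab1, Lrp8 and Vldlr, drawn to scale in each panel, with the distance from the start of the upstream exon in kilobases on the horizontal axis. Orange boxes are alternative exons and grey boxes are flanking exons; the 51 and 48 nt exons of Dab1 lie close together, and each panel has its own scale.

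In Emx1-Cre cells, the paired Dab1 exons, set against skipping, were a main form in Nova2 cKO and a trace form in control. DAB1 is the adaptor that carries the reelin signal into the cell. In the authors' deposited table of Emx1-Cre cells, the isoform with both exons had an inclusion level of 0.822 in cKO cells and 0.00769 in control cells (FDR 2.3e-61, coverage 88.0). The isoform with the 51 nt exon alone had a level of 0.694 in cKO cells and 0.0115 in control cells (FDR 5.95e-46, coverage 88.0), by the authors' values. The differences, cKO minus control, were 0.814 and 0.682. Against skipping, both forms were thus almost absent from control RNA, and both events went the same way. The number of reads behind such low control levels is not given, so nothing is read from their exact size. No listed event gives the level of the second exon without the 51 nt exon. The 2 levels in cKO cells sum to 1.52, so they are not shares of 1 total. Both events have the same coverage and the same flanking exons, so they are not independent measurements.

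Both of the 2 Dab1 events rose, and 47.5% of the 1622 cassette and tandem cassette events in the Emx1-Cre table did so. The tandem event ranked 28 among 2682 events by the size of its difference and 8 among 710 tandem cassettes. The event of the 51 nt exon ranked 66 in the table and 38 among 912 cassettes. The median size of the difference over all events of this table was 0.209. Both alternative exons have a length that is a multiple of 3, as has their sum of 99 nt, so their inclusion does not shift the reading frame. Among all listed events of that table, the alternative length was a multiple of 3 in 57.7% of cassettes and in 50.7% of tandem cassettes.

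**Figure D2:**
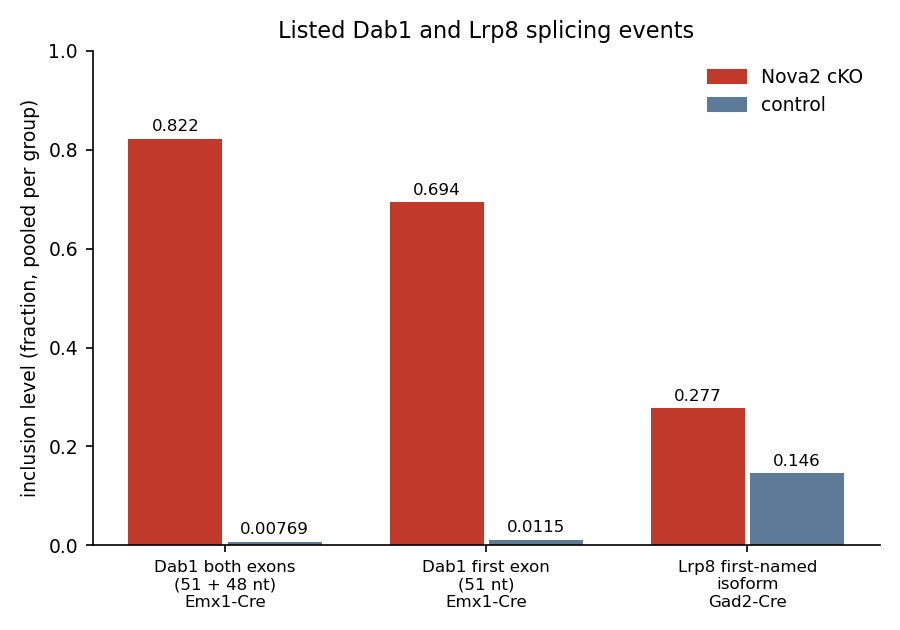
Pooled inclusion level (fraction, vertical axis from 0 to 1) of the Dab1 and Lrp8 events; each bar is the authors' value for 1 group, pooled over replicates and so without an error bar. The Dab1 bars of Nova2 cKO cells stand at 0.822 and 0.694 beside control bars of 0.00769 and 0.0115, and the Lrp8 bars stand at 0.277 in cKO and 0.146 in control.

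Few listed events combined a trace level in control with a major form in cKO. In the Emx1-Cre table, 24 events had a control level under 0.02, and 6 of them had a cKO level over 0.6; these limits were set after the values were seen. The 6 events belonged to 3 genes: Dab1, the glycine receptor subunit gene Glra2 and the kinase gene Lmtk3. The 4 events of Glra2 and Lmtk3 were listed in Gad2-Cre cells as well, and the 2 of Dab1 were not. Among the 115 events of the Emx1-Cre table with a difference of at least 0.6, 77 were listed in the Gad2-Cre table too (67.0%), and 4 were listed between controls (3.48%).

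The genes most like Dab1 were sought by the distance between pairs of levels in the 2 Emx1-Cre groups, a rule set after the values were seen, because no Dab1 event was listed in both cKO tables. The nearest to the tandem event was an exon of Glra2, at 0.854 in cKO and 0.000257 in control cells by the authors' values (distance 0.0329). An exon of Dlg3, a synaptic scaffold gene, followed at 0.865 in cKO and 0.0256 in control cells (distance 0.0462), again the authors' values. Next came an isoform of Atp11b, a flippase gene, an exon of Slc8a1, a sodium-calcium exchanger gene, and an exon of Ablim1, an actin-binding protein gene, at distances of 0.0669, 0.0819 and 0.0866. In Gad2-Cre cells the authors' deposited table gave the Glra2 exon at 0.571 in cKO and 0.000199 in control, and that of Dlg3 at 0.622 in cKO and 0.0947 in control. The Ablim1 event, like those of Dab1, was not listed there.

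**Figure D3:**
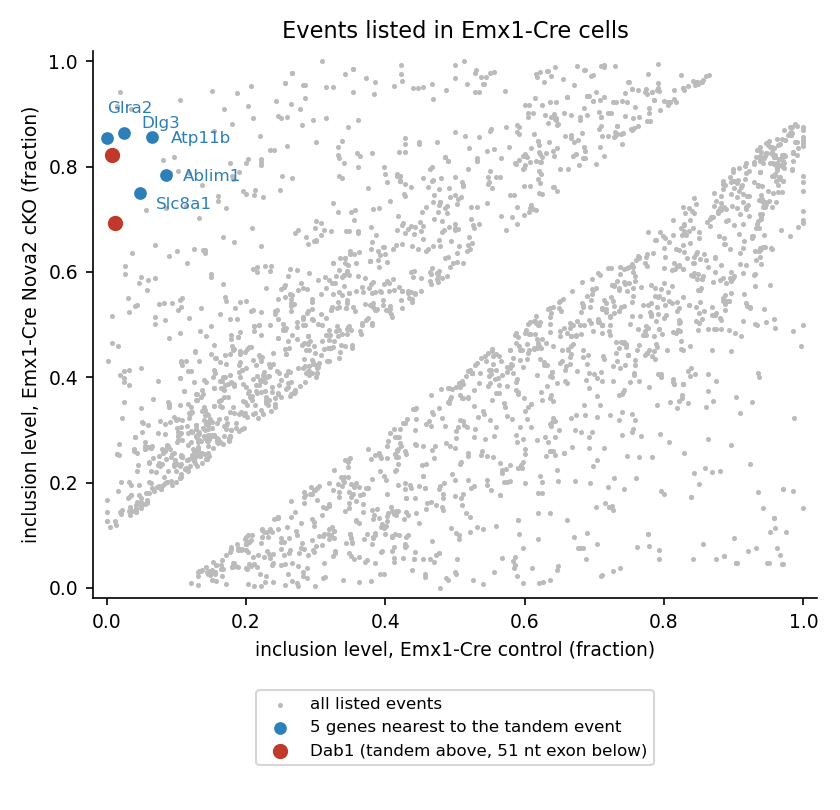
Inclusion level in Emx1-Cre Nova2 cKO cells (vertical axis, fraction) against that in Emx1-Cre control cells (horizontal axis, fraction) for all 2682 listed events in grey; the empty diagonal band holds differences under 0.1, which are not listed. The Dab1 events (red, 0.822 and 0.694 in cKO) lie in the upper left corner near the 5 genes with the most similar levels (blue).

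In Gad2-Cre cells no Dab1 event was listed, and 1 of Lrp8 was. Lrp8 encodes ApoER2, 1 of the receptors of reelin. In the authors' deposited table of Gad2-Cre cells, the isoform with the 123 nt exon shown above had a level of 0.277 in cKO cells and 0.146 in control cells, with a difference of 0.132 (FDR 0.0105, coverage 156). Of the pair compared, this isoform was the minor form in both groups. The level is not that of the exon over all Lrp8 RNA, which is not given. The authors class the event as mutually exclusive, so that the level sets this isoform against another exon choice between the exons of 123 nt at chr4:107847444-107847566 and 126 nt at chr4:107851500-107851625. GENCODE has a coding exon of 120 nt in that interval too, and the deposited intervals give the first-named isoform only.

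The Lrp8 event ranked 1631 among 1970 events of the Gad2-Cre table by the size of its difference, against a median size of 0.202. The first-named isoform was higher in cKO cells in 38.0% of the 489 mutually exclusive events of this table, where the direction depends on which isoform is named first. The length of 123 nt is a multiple of 3, as in 40.9% of mutually exclusive events of that table. No Lrp8 event was listed in Emx1-Cre cells, in the Purkinje layer or between controls.

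In the Purkinje layer the only listed events of the 3 genes were at an exon of Vldlr, the second reelin receptor gene. Neither the labels nor the header say which group of the Purkinje table is the cKO, so the levels of its groups were not used and only the authors' difference, group 1 minus group 2, is given. In the authors' deposited table the difference was -0.133 for a form of 192 nt (chr19:27236171-27236362; FDR 0.0297, coverage 147). It was -0.119 for a form of 120 nt (chr19:27236240-27236359; FDR 0.0366, coverage 147), by the authors' values. Both forms were thus less included in group 1 than in group 2, and whether loss of Nova2 raised or lowered inclusion is not known from these values.

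The 192 nt form begins 69 nt before the annotated 123 nt exon, and the 120 nt form ends 3 nt before its end, so neither is a GENCODE exon. They overlap over 120 nt and share their coverage and flanking exons, and they count here as 1 region of change. All 3 lengths are multiples of 3. The 2 Vldlr events ranked 467 and 521 among 603 events of the table by size, against a median size of 0.170, and 70.5% of its 268 cassette events were lower in group 1. Of the 161 Purkinje events also listed in the Emx1-Cre table, 156 had a group 1 minus group 2 difference of the same sign as control minus cKO there, and 141 of the 147 also listed in Gad2-Cre cells did. This is a description and was not used to name the groups. In such tissue, a change of splicing within cells and a change in the mix of cells cannot be told apart. No Dab1 event was listed in the Purkinje layer.

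Across the cell classes each of the 3 genes was listed in a single table: Dab1 in Emx1-Cre cells, Lrp8 in Gad2-Cre cells and Vldlr in the Purkinje layer. Over all events, being listed in Emx1-Cre cells alone of the cKO cortex tables was the more common case. Of the 2682 Emx1-Cre events, 823 (30.7%) were listed in Gad2-Cre cells too, and 427 of the 1044 genes of the Emx1-Cre table had any event there. For events as large as those of Dab1 it was the less common case: of the 115 with a difference of at least 0.6, 77 (67.0%) were listed in both. Of the 1970 Gad2-Cre events, where Lrp8 was listed, 823 were listed in Emx1-Cre cells too. Of the 603 Purkinje events, where Vldlr was listed, 161 were also listed in Emx1-Cre cells and 147 in Gad2-Cre cells. None of the 3 genes had an event listed between Emx1-Cre and Gad2-Cre controls, a table of 1236 events (0 events). The change on loss of Nova2 could not be tested for a difference between classes in any of these genes, since 0 of the 823 events listed in both cKO tables belong to them. The listing therefore does not show that the events differ between classes.

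Beyond the receptor complex, 6 of the other 49 genes of a reelin pathway list had a listed event in some table, and the rest of that list had none. Of the 21924 protein-coding genes in GENCODE, 7.82% had a listed event in some table; that base includes genes not expressed in these cells, so nothing is read from the count about the pathway. By table the share was 4.52% in Emx1-Cre cells, 3.81% in Gad2-Cre cells, 1.14% in the Purkinje layer and 2.41% between controls. Of all 52 genes with the 3 above included, 6 were listed in the Emx1-Cre table: inclusion was higher in cKO in 3 (Dab1, Src and Rapgef1) and lower in 2 (Aplp2 and Dlg4), by the event with the largest difference, and 1 (Fyn) had mutually exclusive isoforms with no order of inclusion. In Gad2-Cre cells 4 were listed, 3 lower in cKO (Rapgef1, Aplp2 and Dlg4) and 1 mutually exclusive (Lrp8). Between controls 3 were listed, 1 higher in Emx1-Cre than in Gad2-Cre controls (Aplp2, at a region of 79 nt that is not a GENCODE exon) and 2 lower (Src and Rapgef1). In the Purkinje layer 2 were listed, Vldlr and Itga3, both lower in group 1.

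Genes of both kinases that phosphorylate DAB1 were listed in Emx1-Cre cells. In Src, a pair of short exons of 18 and 33 nt, the first annotated as coding, had a level of 0.603 in Emx1-Cre cKO cells and 0.345 in Emx1-Cre control cells in the authors' deposited table (FDR 0.00276, coverage 59.6). All 7 listed Src events of that table were higher in cKO, with differences between 0.194 and 0.257; they overlap at the 18 nt exon and are not independent. Between controls the authors' deposited table gave the same pair of exons at 0.345 in Emx1-Cre and 0.603 in Gad2-Cre cells (FDR 0.0486). These comparisons share the Emx1-Cre controls. In Fyn, an isoform with an exon of 70 nt, of a mutually exclusive pair, was at 0.489 in Emx1-Cre cKO and 0.351 in Emx1-Cre control cells by the authors' values (FDR 0.000151, coverage 402). GENCODE holds this Fyn exon, but not as an exon that is coding over its whole length.

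Downstream of DAB1, Rapgef1 encodes the exchange factor that activates RAP1. Tandem exons of 258 and 96 nt, the first annotated as coding, had a level of 0.559 in Emx1-Cre cKO and 0.308 in Emx1-Cre control cells in the authors' deposited table (FDR 0.0372, coverage 44.0). At another place in the gene, a form of 130 nt was at 0.342 in Gad2-Cre cKO and 0.546 in Gad2-Cre control cells (FDR 0.0195), and the authors' value for Emx1-Cre controls was 0.333. This form is not a GENCODE exon. The annotated coding exon of 114 nt there was at 0.509 in Gad2-Cre cKO and 0.7 in Gad2-Cre control cells by the authors' values (FDR 0.0195). The largest of the 18 Rapgef1 events between controls was a tandem event at 0.441 in Emx1-Cre and 0.912 in Gad2-Cre cells (FDR 6.02e-05, coverage 47.0), by the authors' values. Its first alternative exon is not a GENCODE exon. The Gad2-Cre comparison shares its controls with the comparison of controls.

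Genes that meet the pathway at the membrane were listed as well. Aplp2 encodes a relative of the amyloid precursor protein, a protein to which DAB1 can bind. Its coding exon of 36 nt (chr9:31156190-31156225) was at 0.130 in Emx1-Cre cKO and 0.427 in Emx1-Cre control cells by the authors' values (FDR 1.52e-15, coverage 263). In Gad2-Cre cells the authors' deposited table gave that exon at 0.148 in cKO and 0.439 in control (FDR 4.18e-07, coverage 159). The Aplp2 event listed between controls lies elsewhere (chr9:31167650-31167728), at 0.790 in Emx1-Cre and 0.529 in Gad2-Cre controls by the authors' values (FDR 0.0156). In Dlg4, which encodes the synaptic scaffold PSD-95, a region of 82 nt was at 0.608 in Gad2-Cre cKO and 0.859 in Gad2-Cre control cells (FDR 0.0438, coverage 42.0), and at 0.668 and 0.879 in Emx1-Cre cKO and control cells (FDR 0.00144), all the authors' values. This Dlg4 region is not a GENCODE exon. The annotated coding exon of 110 nt there was at 0.807 in Emx1-Cre cKO and 0.942 in Emx1-Cre control cells by the authors' values (FDR 0.00156). In the Purkinje table, a 114 nt region of Itga3, an integrin subunit gene, had a difference of -0.268, group 1 minus group 2, by the authors' values (FDR 0.00903). This Itga3 region is not a GENCODE exon either. The overlapping GENCODE exon of 142 nt had a difference of -0.241, group 1 minus group 2, by the authors' values (FDR 0.0121). GENCODE does not hold that exon as coding over its whole length.

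**Figure D4:**
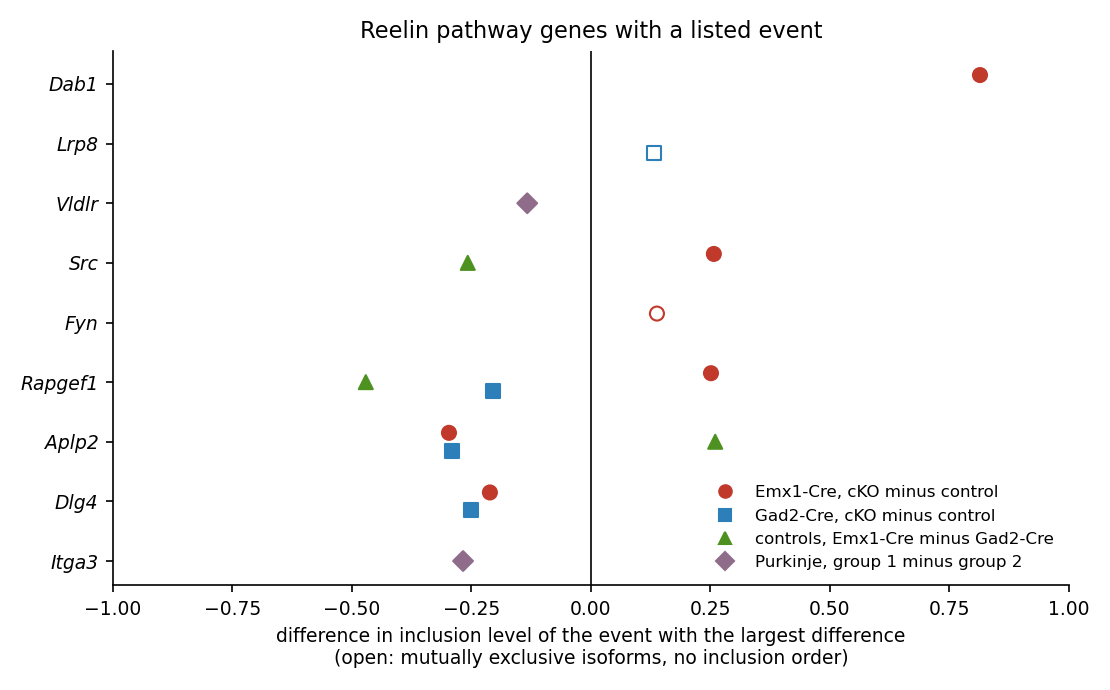
Difference in inclusion level (horizontal axis, fraction) for the event with the largest difference in each table, for the 9 reelin pathway genes with a listed event; filled symbols are events with an order of inclusion and open symbols are mutually exclusive isoforms. The Dab1 point at 0.814 lies far from zero, and the differences of the other genes lie between -0.471 and 0.260.

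For 3 events of these pathway genes the change was listed in both classes, and its difference between classes, Emx1-Cre minus Gad2-Cre, was tested with errors derived from the authors' p-values. The difference was -0.00598 for the Aplp2 exon (95% interval -0.128 to 0.116) and 0.0398 for each of 2 overlapping Dlg4 events (widest 95% interval -0.175 to 0.255). The Benjamini-Hochberg adjusted p over 823 events was 0.968 for Aplp2 and 0.890 for the Dlg4 events. None of these 3 passed, against 12.9% of all 823 events, and the 2 Dlg4 events have the same levels. All 823 events had passed the limits for listing in both classes, so events listed in 1 class alone could not enter the test. The 12.9% holds for that selection only. The intervals are wide. They hold the spread between replicates only if the authors' p-values do. With errors taken from a t quantile with 4 degrees of freedom, which gives very small errors where the authors' p-value is very small, 651 of the 823 events passed, the Aplp2 event at its difference of -0.00598 among them (adjusted p 0.00521). No difference between classes is read from that setting.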

How the data were processed

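Splicing levels were made by the authors with Quantas against mm10, per the labels. The submitters' processing notes also name kallisto and edgeR, without a role; aligner, versions and strandedness are unstated. Per the file headers, each deposited table gives 1 inclusion fraction per group, their difference as a signed score (group 1 minus group 2), a p-value, an FDR and a coverage that is not defined further. In both cKO tables the order of the group names in the labels was taken as control, then cKO, and differences were turned to cKO minus control. The authors pooled replicates, which leaves no library values to test. The 2 level columns of the Purkinje table could be matched to no group and were not used; its deposited difference was.

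The 3 genes and the gene lists were chosen with earlier results of these data known. All events of the 3 genes are given; pathway genes with a listed event are named by their largest differences. A further gene first placed on the pathway list is not reported here and enters none of the list's counts. Exon positions come from the deposited intervals, and sequences and annotation from GENCODE release M21, read with Biopython 1.88. Changes in Emx1-Cre and Gad2-Cre cells were compared by a normal test over the 823 shared events, each error being the change divided by the normal quantile of the authors' p-value, with Benjamini-Hochberg adjustment (SciPy 1.17.1). A run on simulated data drew its errors by the same rule, so it could not test that rule. Motifs in introns were not counted, since no genome sequence was used.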

Additional observations from a re-analysis of the deposited data

How the results depend on the processing

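The 2 Dab1 events met every stricter limit tried (FDR of at most 0.01, difference of at least 0.2, coverage of at least 40). The Lrp8 event and the Vldlr events were near the limits: at an FDR of at most 0.01 the number of listed events of these genes was 0 in the Gad2-Cre table and 0 in the Purkinje table, and at a difference of at least 0.2 it was again 0 in each. With 1 event per gene and event type, the Purkinje table kept 1. Taking events by overlap with the annotated gene, an alternative chosen after seeing the data, changed no count. The test between classes depended on how errors were derived: 106 of 823 events passed in the main test, 651 with errors from a t quantile with 4 degrees of freedom (the test itself still normal) and 13 with binomial errors from coverage; this test included 0 events of Dab1, Lrp8 or Vldlr. A run within the event types of these genes, and motif counts in 100 nt of intron, were not run. No paired analysis was possible because the tables hold 1 pooled level per group, and for the same reason no replicate could be left out. Coverage of 20 to 40 leaves single levels imprecise. The 5 events of the 3 genes had at least 88.0, but coverage is not defined further, so the precision of their levels is not known.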
